A study of Homo sapiens with 4 samples.

Results

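Spheres of HT29 were compared with spheres of HCT15 at the level of mature microRNAs (miRNAs). HT29 and HCT15 are established human colorectal adenocarcinoma cell lines, each derived from a single tumour. The sphere libraries are 2 of the 4 libraries of the study, which also sequenced parental cells of each line. HT29 spheres and HCT15 spheres were grown in the same tumour sphere medium (DMEM-F12, N2 Plus Supplement, and bFGF and EGF at 10 ng/ml each), and the submitters describe both as sphere-derived cancer stem cells. HT29 parental cells were kept in DMEM and HCT15 parental cells in RPMI, each with 10% FBS. No genetic change or drug treatment is named for any group, apart from the antibiotics that all media held. Members of the comparison were the 1882 miRNA names listed for both sphere libraries, of 1921 names listed for HT29 spheres and 2041 for HCT15 spheres. Every value below is a level in parts per 1000000 (ppm), meaning the deposited value divided by the sum over these 1882 names in its library.

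There was 1 library per line and culture, so no difference below has a replicate check and none was tested. The HT29 values were deposited as read counts and the HCT15 values as RPKM, in separately made tables, so line, deposited unit and processing run cannot be told apart. Shared names held 12646638 reads in HT29 spheres and, from the steps between low HCT15 values, about 2308394 in HCT15 spheres. The latter takes the most common low value of HCT15 spheres as 2 reads. A count of 0 allows up to 3 reads, which is 0.237 ppm in HT29 spheres and 1.29 ppm in HCT15 spheres. Reads carry no molecular identifiers, so this floor and the intervals below cover counting error only. In bulk RNA, fewer cells of a type and less RNA per cell cannot be told apart.

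A miRNA is cut from a hairpin precursor by Drosha and Dicer, and either arm of the hairpin (5p or 3p) can be loaded into an Argonaute protein. The loaded strand pairs with messenger RNAs mainly through its seed, bases 2 to 8, and lowers their translation and stability, so miRNAs that share a seed share many potential targets. Many miRNAs are encoded close together and cut from a shared primary transcript. In the intestine, miR-192, miR-194 and miR-215 mark differentiated epithelium, the miR-200 family holds cells in the epithelial state, and the miR-371a/miR-373 cluster is known from embryonic stem cells and germ cell tumours.

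The mature sequences of the miRNAs on which the comparison turns are given from RefSeq (GRCh38), 5′ to 3′, with the seed in capitals. Of the 386 miRNAs at 10 ppm or more in at least 1 sphere library, 328 (85.0%) matched a RefSeq entry. The first set holds miRNAs that were higher in HCT15 spheres, of which miR-10a-5p differed least (7.43-fold). Added to it was miR-17-5p, because its seed is that of miR-372 and miR-373-3p moved by a single base:
miR-371a-5p: aCUCAAACugugggggcacu
miR-372: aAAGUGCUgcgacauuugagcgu
miR-373-3p: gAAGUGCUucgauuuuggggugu
miR-17-5p: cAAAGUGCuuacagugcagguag
miR-449b-5p: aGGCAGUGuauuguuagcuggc
miR-148a-3p: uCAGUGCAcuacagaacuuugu
miR-10a-5p: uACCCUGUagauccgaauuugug
The second set holds miRNAs that were far higher in HT29 spheres, among them miR-192-5p and miR-215, which share a seed:
miR-192-5p: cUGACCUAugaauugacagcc
miR-215: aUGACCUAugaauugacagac
miR-194-5p: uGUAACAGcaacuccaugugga
miR-452-5p: aACUGUUUgcagaggaaacuga
miR-185-5p: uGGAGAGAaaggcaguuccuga
miR-1: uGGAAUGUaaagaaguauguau
The third set holds 3 miRNAs of a cluster on chromosome 19 whose line differences ran far apart through miR-24-3p, which chromosome 9 also encodes. It also holds both arms of a hairpin that used opposite arms in the lines:
miR-27a-3p: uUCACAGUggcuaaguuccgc
miR-23a-3p: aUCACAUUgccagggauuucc
miR-24-3p: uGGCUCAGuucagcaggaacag
miR-671-5p: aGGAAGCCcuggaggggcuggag
miR-671-3p: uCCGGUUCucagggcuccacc

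The spheres of the lines shared their most abundant miRNA and little else at the top of the list. miR-21-5p, a miRNA raised in many carcinomas, ranked first in both, at 245151 ppm in HT29 spheres and 126896 ppm in HCT15 spheres. In HT29 spheres it was followed by miR-192-5p (159703 ppm), let-7a-5p (66650), let-7f-5p (44049) and miR-151a-3p (31005). In HCT15 spheres it was followed by miR-10a-5p (113374), miR-10b-5p (96049), miR-182-5p (88833) and miR-148a-3p (44868). Of the 10 most abundant names, 3 were common to the libraries (miR-21-5p, let-7a-5p and miR-182-5p), and of the 50 most abundant, 32. Each line kept more of its own top 50 across cultures, 44 names between HT29 parental cells and spheres and 48 between those of HCT15. The libraries were about equally concentrated: the 10 most abundant miRNAs made up 65.2% of HT29 spheres and 63.9% of HCT15 spheres, and 41 and 39 miRNAs made up 90% of each.

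Large differences were common in both directions. Of the 386 miRNAs compared, 66 (17.1%) were at least 10-fold higher in HT29 spheres and 59 (15.3%) at least 10-fold higher in HCT15 spheres, on the scale of the level plus 1. At least 4-fold, the counts were 122 (31.6%) and 103 (26.7%). The median log2 ratio of HT29 over HCT15 was 0.25, and 79 miRNAs (20.5%) were within 2-fold. The miRNAs at least 10-fold higher in HT29 spheres held 26.3% of the HT29 library and 0.588% of the HCT15 library, while those at least 10-fold higher in HCT15 spheres held 0.825% and 24.1%. Depth limits the first group: 33 of the 66 rested on 3 or fewer reads in HCT15 spheres, and 24 were listed at 0 there. In the second group 6 were listed at 0 in HT29 spheres. Among the 206 miRNAs at 100 ppm or more in a sphere library, 37 and 30 passed 10-fold. The plot of levels in both sphere libraries shows this spread.

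**Figure D1:**
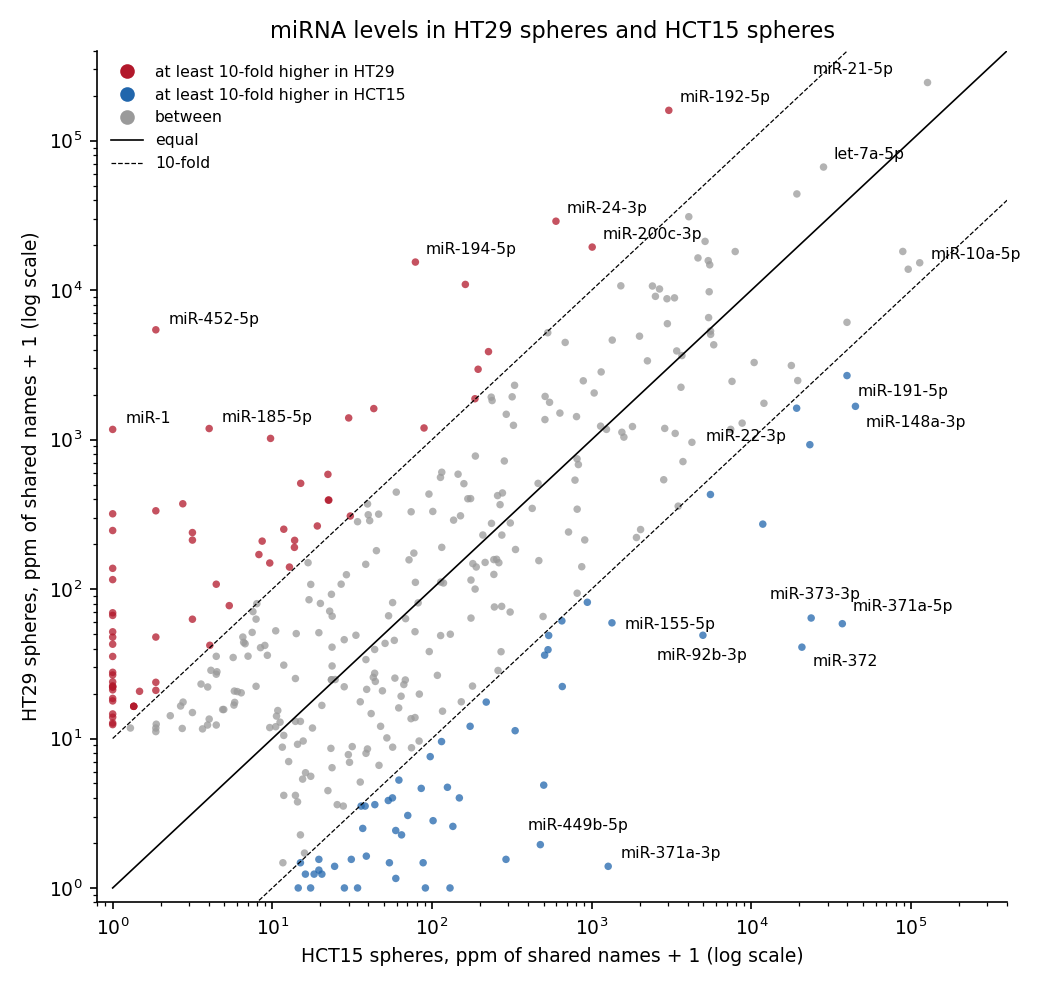
Levels ppm of shared names plus 1 in HCT15 spheres (x axis, log scale) and HT29 spheres (y axis, log scale) of the 386 miRNAs compared, 1 point each, with lines at equality and at 10-fold. The 66 red points are at least 10-fold higher in HT29 and the 59 blue points at least 10-fold higher in HCT15; miR-21-5p is the highest point in both libraries.

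The embryonic miR-371a/miR-373 cluster gave the lowest ratios of all miRNAs at 100 ppm or more. miR-371a-5p stood at 57.6 ppm in HT29 spheres and 37133 in HCT15 spheres, 644-fold higher in HCT15, where it ranked 8. miR-372 stood at 39.9 and 20735, a 520-fold difference. miR-373-3p stood at 63.0 and 23695, a 376-fold difference. These 3 guide strands thus ranked 195, 218 and 188 in HT29 spheres against 8, 12 and 10 in HCT15 spheres. As parental cells, HT29 held 20.7, 22.9 and 14.6 ppm of the same strands, and HCT15 held 63529, 27504 and 35016 ppm, so both HT29 libraries lay far below both HCT15 libraries. The passenger strand miR-371a-3p rested on 5 reads in HT29 spheres (0.395 ppm) and stood at 1268 ppm in HCT15 spheres, 3207-fold higher there. All 3 hairpins lie at chr19:53787675-53788773 (GRCh38, plus strand), with no annotated host gene on that strand.

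The other embryonic cluster, miR-302/miR-367, was not part of this difference. Of the 10 names listed for both embryonic clusters, 5 reached 10 ppm, all 5 from miR-371a/miR-373 and all at least 10-fold higher in HCT15 spheres (15.3% of all miRNAs compared), with a median log2 ratio of -8.99 against 0.25 over all miRNAs compared. The remaining 5 names, from miR-302/miR-367, reached at most 0.0791 ppm in either sphere library, and all of them were listed at 0 in HCT15 spheres. In that library 553 of the 1882 shared names were above 0. The 10 embryonic names summed to 8.28% of HCT15 spheres and 0.0161% of HT29 spheres. In parental cells they summed to 12.9% in HCT15 and 0.00601% in HT29, so the HCT15 share was lower and the HT29 share higher in spheres than in parental cells. The seed AAGUGCU, led by miR-372 and miR-373-3p, held 4.44% of HCT15 spheres and 0.0103% of HT29 spheres. The shifted seed AAAGUGC of miR-17-5p and its relatives held 0.410% and 2.14%.

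The placental cluster on chromosome 19, C19MC, a primate cluster active in placenta that lies next to miR-371a/miR-373, was low in both lines. Of 12 listed members, 4 reached 10 ppm, and all 4 were at least 10-fold higher in HCT15 spheres, beside 15.3% of all miRNAs compared. With a pseudocount of 5 ppm, miR-512-3p, miR-522-3p and miR-515-5p fell below 10-fold and the median log2 ratio moved from -4.08 to -2.16. The most abundant, miR-516a-5p, stood at 1.82 ppm in HT29 spheres and 101 in HCT15 spheres. The 12 members summed to 0.0163% of HCT15 spheres and 0.000285% of HT29 spheres, and the near-identical members of this family cannot be separated with certainty.

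The miR-449 cluster, whose seed is that of the p53-induced miR-34 family and which is known from ciliated epithelium, was also far higher in HCT15 spheres. miR-449b-5p stood at 0.949 ppm (12 reads) in HT29 spheres and 476 in HCT15 spheres. miR-449a stood at 0.474 and 87.0 ppm, and miR-449c-5p at 0 and 89.9. These hairpins lie in an intron of CDC20B at chr5:55170532-55172353. miR-34a-5p, encoded elsewhere, went the other way at lower levels, with 51.6 ppm in HT29 spheres and 9.50 in HCT15 spheres.

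Other miRNAs abundant in HCT15 spheres differed less steeply. miR-148a-3p, which targets the DNA methyltransferase DNMT1 among others, stood at 1669 ppm in HT29 spheres (rank 58) and 44868 in HCT15 spheres (rank 5), 26.9-fold higher. Its parental levels were 490 and 34419 ppm. Its family members did not follow it: miR-148b-3p, with the same seed, stood at 3365 and 2233 ppm, and miR-152 at 558 and 112. miR-22-3p stood at 924 and 23251 ppm, a 25.2-fold difference. miR-191-5p stood at 2681 and 39721, a 14.8-fold difference. miR-222-3p, which represses the cell cycle inhibitor p27, stood at 1622 and 19220, while miR-221-3p, with the same seed and encoded beside it, stood at 4309 and 5812. miR-92b-3p stood at 48.1 and 4973, a 103-fold difference, and the star strand miR-21-3p at 271 and 11793, a 43.5-fold difference that contrasts with the 1.93-fold opposite difference of its partner miR-21-5p.

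Among scarce names with very low ratios, miR-125b-1-3p stood at 0.554 ppm (7 reads) in HT29 spheres and 290 in HCT15 spheres. miR-100-3p was listed at 0 in HT29 spheres and stood at 129 ppm in HCT15 spheres, at least 542-fold higher against the floor of 3 reads per library. The same locus family showed the same side in its guide strands. Of the 5 miR-99/100 and miR-125 members, 4 were at least 4-fold and 3 at least 10-fold higher in HCT15 spheres, beside 26.7% and 15.3% of all miRNAs compared, with miR-100-5p at 60.3 and 650 ppm, miR-99a-5p at 38.3 and 532, and miR-125b-5p at 10.3 and 331. With TMM scaling miR-100-5p fell below 10-fold, at a log2 ratio of -3.29. The exception, miR-99b-5p, stood at 14776 ppm in HT29 spheres and 5487 in HCT15 spheres, so the summed level of the list was alike, 1.62% and 1.58%. The other names with the lowest ratios, miR-671-3p, miR-25-5p and miR-3615, had 3.87, 1.58 and 3.0 ppm in HT29 spheres and 499.8, 134 and 147 in HCT15 spheres.

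miRNAs encoded within HOX gene clusters held 21.0% of HCT15 spheres and 3.03% of HT29 spheres, nearly all of it miR-10. miR-10a-5p, encoded in the HOXB cluster at chr17:48579838-48579947, stood at 15251 ppm in HT29 spheres and 113374 in HCT15 spheres, 7.43-fold higher. Its parental levels were 23778 and 87202 ppm. miR-10b-5p, from the HOXD cluster, stood at 13807 and 96049, 6.96-fold higher; miR-10a-5p and miR-10b-5p differ at a single position, so their separate levels are uncertain. miR-615-3p, from the HOXC cluster, was on the same side at low levels, 26.3 and 42.7 ppm. miR-196a-5p, at 775 and 186 ppm, and miR-196b-5p, at 431 and 94.7, were on the other. The list as a whole had 2 of 5 members at least 4-fold higher in each line, near the 31.6% and 26.7% of all miRNAs compared, with 0 at 10-fold and a median log2 ratio of -0.68.

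The 3 miRNAs linked to NF-kB signalling all had higher levels in HCT15 spheres. miR-146a-5p, induced by NF-kB and a brake on it, stood at 2483 ppm in HT29 spheres and 19523 in HCT15 spheres. In parental cells it stood at 541 and 2477, lower than in the spheres of the same line in each case. miR-155-5p stood at 58.4 and 1339 ppm in spheres, 22.9-fold higher in HCT15. miR-146b-5p stood at 1099 and 3334. Of these 3, 2 were at least 4-fold and 1 at least 10-fold higher in HCT15 spheres, beside 26.7% and 15.3% of all miRNAs compared, with a median log2 ratio of -2.97.

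In HT29 spheres the intestinal epithelial miRNAs stood out. miR-192-5p stood at 159703 ppm in HT29 spheres (rank 2) and 3041 in HCT15 spheres (rank 44), 52.5-fold higher in HT29. miR-215 stood at 10925 and 161 ppm, 68.0-fold higher. miR-194-5p stood at 15418 and 77.7 ppm, 198-fold higher. miR-375, an enteroendocrine and secretory-lineage miRNA, went the other way with 2452 and 7566 ppm. Parental levels of miR-192-5p were 92947 ppm in HT29 and 2593 ppm in HCT15, those of miR-215 were 5269 and 213, and those of miR-194-5p were 20317 and 81.8. All 3 were thus higher in HT29 in both cultures, as were all 66 miRNAs at least 10-fold higher in HT29 spheres. The list summed to 18.8% of HT29 spheres and 1.08% of HCT15 spheres, against 11.9% and 1.34% in parental cells. The seed shared by miR-192-5p and miR-215 (UGACCUA) alone took 17.1% of HT29 spheres and 0.320% of HCT15 spheres. miR-192 and a copy of miR-194 lie at chr11:64891137-64891439 in an exon of the non-coding host gene MIR194-2HG, and miR-215 and the other copy at chr1:220117853-220118241.

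The highest ratio at 100 ppm or more was that of miR-452-5p. It stood at 5428 ppm (68650 reads) in HT29 spheres and 0.863 ppm in HCT15 spheres, which rests on about 2 reads and gives a 6288-fold difference with a 95% counting interval of 1734 to 51736. Its parental levels were 3343 and 3.15 ppm. The line difference thus had the same sign in both cultures, like that of every miRNA past 10-fold in spheres. Its neighbour miR-224-5p, a miRNA raised in colorectal tumours, stood at 584 and 21.3 ppm, 27.5-fold higher in HT29. Both hairpins overlap annotated exons of GABRE at chrX:151958578-151959712. miR-185-5p stood at 1185 and 3.02 ppm, 392-fold higher with an interval of 190 to 972. miR-7-5p stood at 1018 and 8.74 ppm, 116-fold higher. miR-455-5p, at 238 and 2.16 ppm, rested on about 5 HCT15 reads.

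Both arms of miR-338, encoded in an intron of AATK at chr17:81125883-81125949, were near the floor in HCT15 spheres. miR-338-3p stood at 318 ppm in HT29 spheres and was listed at 0 in HCT15 spheres, at least 245-fold higher in HT29. miR-338-5p stood at 333 and 0.863 ppm, about 2 HCT15 reads, a 386-fold difference with an interval of 106 to 3174. miR-598 (245 ppm), miR-552 (137) and miR-590-5p (115) were also listed at 0 in HCT15 spheres and were at least 190-fold, 106-fold and 88.5-fold higher in HT29 spheres. The value of 0 in HCT15 spheres can include a dropped single read, which the floor of 3 reads covers.

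miRNAs named for muscle and blood needed a check against their partners, since neither line is of those lineages. miR-1 stood at 1169 ppm in HT29 spheres and 166 in HT29 parental cells and was listed at 0 in both HCT15 libraries, at least 903-fold higher in HT29 spheres. The other 5 muscle names reached at most 2.77 ppm in either sphere library, including miR-133a (2.77 and 0 ppm), which is encoded beside miR-1. The 6 muscle names summed to 1175 ppm in HT29 spheres and 0.852 in HCT15 spheres. miR-142-3p, a blood cell miRNA, stood at 371 ppm in HT29 spheres and 1.75 in HCT15 spheres (about 4 reads), and miR-142-5p at 107 and 26.0. Of the blood markers, miR-223-3p was listed at 0 in both sphere libraries, miR-451a stood at 0.949 and 0 ppm, and miR-150-5p at 7.83 and 0. miR-486-5p, from red cells, was on the HCT15 side at 2.53 and 35.0 ppm, past 10-fold but below it with TMM scaling, at a log2 ratio of -3.24. The 7 blood names summed to 489 and 62.7 ppm, mostly miR-142 in HT29.

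Most of the remaining lineage markers were low in both sphere libraries. The 5 stromal names summed to 7.51 ppm in HT29 spheres and 15.3 in HCT15 spheres, with miR-145-5p and miR-214-3p listed at 0 in both. The neural marker miR-124-3p was listed at 0 in both, and miR-9-5p stood at 12.0 and 14.0 ppm. miR-128, high in brain, stood at 276 and 308 ppm and made up most of the neural sum of 312 and 385 ppm. The liver marker miR-122-5p stood at 0.633 and 0 ppm. The endothelial miR-126-3p stood at 148 and 8.63 ppm, while the other arm, miR-126-5p, stood at 110 and 112. The imprinted DLK1-DIO3 miRNAs were low: 1 of 17 names listed in both sphere libraries reached 10 ppm, miR-379-5p with 21.5 ppm in HT29 spheres and 0 in HCT15 spheres, and 16 of the 17 were listed at 0 in HCT15 spheres. The 7 X-linked miR-506/miR-514 names all stayed under 10 ppm, and all were listed at 0 in HCT15 spheres. Zeros were common: of the 1882 shared names, 553 were above 0 in HCT15 spheres and 1058 in HT29 spheres.

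The epithelial miR-200 family marks epithelial cells, and all 5 members were among the 206 miRNAs at 100 ppm or more. Each was at a higher level in HT29 spheres, beside a median log2 ratio of 0.25 over all miRNAs compared. miR-200c-3p stood at 19421 ppm in HT29 spheres and 1006 in HCT15 spheres, 19.3-fold higher. Its parental levels were 17630 and 987 ppm. miR-141-3p, cut from the same transcript, stood at 8760 and 2961. miR-200b-3p stood at 9758 and 5444, a 1.79-fold difference, miR-200a-3p at 10660 and 2401 and miR-429 at 4469 and 681. The family with miR-205 summed to 5.31% of HT29 spheres and 1.26% of HCT15 spheres, with 3 of 6 members at least 4-fold higher in HT29 and 1, miR-205-5p, at least 4-fold higher in HCT15, beside 31.6% and 26.7% of all miRNAs compared.

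The let-7 family, which restrains LIN28 and RAS genes, was higher in HT29 spheres by small margins. Of its 8 listed members, 7 had log2 ratios between 1.00 and 1.94, and 0 of these reached 4-fold, beside 31.6% of all miRNAs compared. let-7b-5p stood at 10183 ppm in HT29 spheres and 2658 in HCT15 spheres. The exception, let-7i-5p, stood at 1170 and 7426 ppm, 4-fold or more higher in HCT15. The family summed to 15.6% and 6.95% of the sphere libraries.

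Families with intermediate differences included miR-29, miR-30 and miR-181. The miR-29 members, which target collagens, all had positive ratios, with miR-29a-3p at 4921 and 1992 ppm and miR-29b-3p at 2308 and 328. In the miR-30 family, miR-30e-5p was nearly equal at 3651 and 3674 ppm, whereas miR-30b-5p stood at 2955 and 193, 15.3-fold higher in HT29. The 4 miR-181 members were all higher in HCT15 spheres, led by miR-181a-5p at 3131 and 17803 ppm. Of these, miR-181b-5p (1222 and 1800 ppm) and miR-181d (535 and 785) were within 2-fold. miR-210, the main miRNA induced by hypoxia, stood at 586 and 145 ppm. The X-linked miR-532/miR-502 cluster, the miR-130, miR-301 and miR-454 family and the miR-15/16 family had 0 members past 10-fold, beside 17.1% and 15.3% of all miRNAs compared toward each line. With upper quartile scaling miR-16-5p and miR-497-5p of the last family passed it toward HCT15. The sensory-organ cluster of miR-182, miR-183 and miR-96 had members on either side of equal: miR-182-5p stood at 18156 and 88833 ppm, miR-183-5p at 6552 and 5399, and miR-96-5p at 506 and 157. Among the remaining abundant names, miR-151a-3p stood at 31005 and 4056 ppm, miR-378a-3p at 21203 and 5130, and miR-101-3p, which targets the histone methyltransferase EZH2, at 10692 and 1522. miR-26a-5p, which shares that target, stood at 1749 and 11990 ppm, on the opposite side.

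Entries that overlap fragments of other small RNAs were looked at separately, since their reads need not come from a miRNA hairpin. Of 10 such names listed in both sphere libraries, 8 reached 10 ppm, with 1 at least 10-fold higher in HT29 (miR-1290, at 208 and 7.64 ppm) and 2 in HCT15, near the 17.1% and 15.3% of all miRNAs compared. The 2 were miR-4792, at 428 and 5543 ppm, and miR-3960, at 0 and 27.3 ppm. The list summed to 0.293% of HT29 spheres and 0.695% of HCT15 spheres. The plot of line differences by list shows the medians of the families and the spread within each list.

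**Figure D2:**
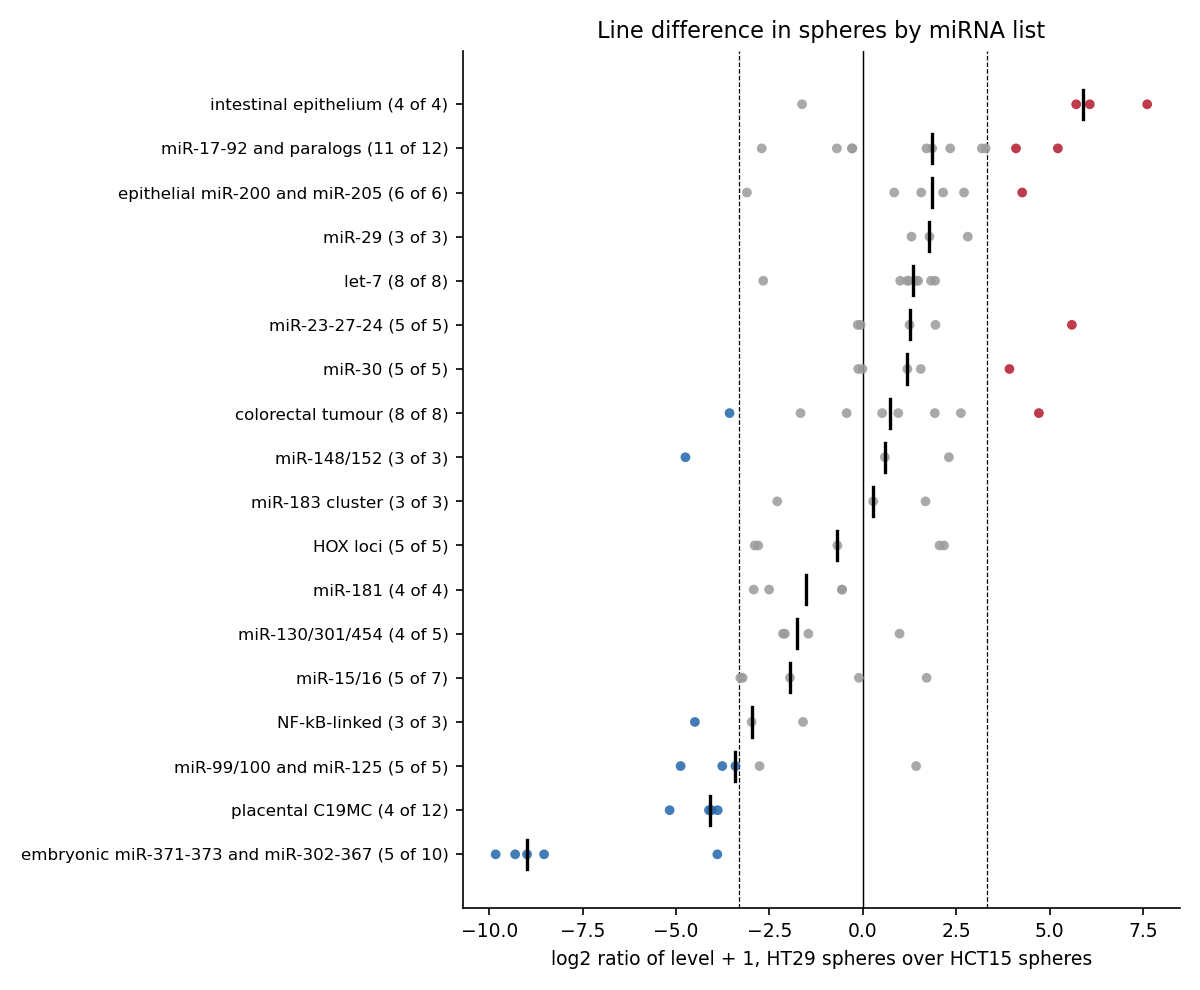
The log2 ratio of the level plus 1 in HT29 spheres over HCT15 spheres for members of 18 miRNA lists, 1 point per member at 10 ppm or more in a sphere library (numbers of such members in brackets), with black ticks at list medians and dashed lines at 10-fold. The embryonic list lies lowest, with a median of -8.99, and the intestinal list highest, with a median of 5.90; red and blue points are past 10-fold.

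Members of a single genomic cluster often had different line ratios; how far unrelated miRNAs differ over sets of the same size was not tested. Hairpins on the same strand within 10 kb of each other were grouped, and the more abundant arm of each was taken where it reached 50 ppm in a sphere library. Of 33 clusters with at least 2 such miRNAs, 21 had members whose line ratios spanned at least 4-fold and 13 at least 10-fold, with a median range of 2.73 on the log2 scale. In parental cells 20 of those 21 also spanned at least 4-fold. So did some clusters that spanned less than 4-fold in spheres. The log2 range of miR-192-5p and miR-194-5p was 1.90 in spheres and 2.77 in parental cells. That of miR-215 and miR-194-5p was 1.54 and 3.32. Restricted to miRNAs with a single annotated locus, 17 of 20 clusters spanned at least 4-fold and 8 at least 10-fold. Without the pseudocount, a scaling between libraries shifts all members alike and leaves these ranges as they are. With it, members near the floor in a library shift less.

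The miR-17-92 cluster at chr13:91350605-91351391, an oncogenic cluster driven by MYC, held members on both sides. miR-18a-5p stood at 1612 ppm in HT29 spheres and 42.2 in HCT15 spheres, 38.2-fold higher in HT29. miR-20a-5p stood at 5190 and 530, 9.80-fold higher. miR-17-5p stood at 1775 and 544 ppm. miR-19a-3p and miR-19b-3p were close to equal, at 346 and 423 and at 680 and 824 ppm. miR-92a-3p, which a second locus on chromosome X also encodes, stood at 6091 and 39719, 6.52-fold higher in HCT15. The 12 names of this cluster and its paralogs summed to 3.24% of HT29 spheres and 4.87% of HCT15 spheres, with miR-92a-3p making up most of the latter.

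The paralog cluster in an intron of MCM7, at chr7:100093560-100094074, was similar in its spread. miR-106b-5p stood at 3879 and 225 ppm, 17.3-fold higher in HT29 spheres, miR-93-5p at 9092 and 2506, and miR-25-3p at 2239 and 3624. In the cluster at chr19:13836287-13836659, miR-24-3p stood at 28937 and 596 ppm, 48.5-fold higher in HT29 spheres, miR-23a-3p at 1504 and 631, and miR-27a-3p at 5058 and 5556. A second locus on chromosome 9 also encodes miR-24-3p, so its level cannot be assigned to this cluster. Without it, the log2 ratios here were 1.25 for miR-23a-3p and -0.14 for miR-27a-3p. Parental levels were 26514 and 559 ppm for miR-24-3p, 2880 and 594 for miR-23a-3p and 4025 and 5801 for miR-27a-3p, in the same order of line ratios. The chromosome 9 copy, with miR-23b-3p and miR-27b-3p, showed the same order, but its highest ratio is the same miR-24-3p value and not a separate observation. miR-191-5p and miR-425-5p, encoded together at chr3:49020148-49020709, had log2 ratios of -3.89 and 0.83. miR-16-5p stood at 358 and 3481 ppm, whereas miR-15a-5p, from a hairpin beside one of its copies, stood at 330 and 100.1. The miR-371a/miR-373 cluster had a narrower range, 0.77 on the log2 scale over its 3 guide strands. Other clusters were narrower still: miR-30c-5p with miR-30e-5p (0.11), let-7f-5p with let-7a-5p and let-7d-5p (0.29), miR-516a-5p with miR-1283 (0.34) and let-7a-5p with let-7b-5p (0.70).

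**Figure D3:**
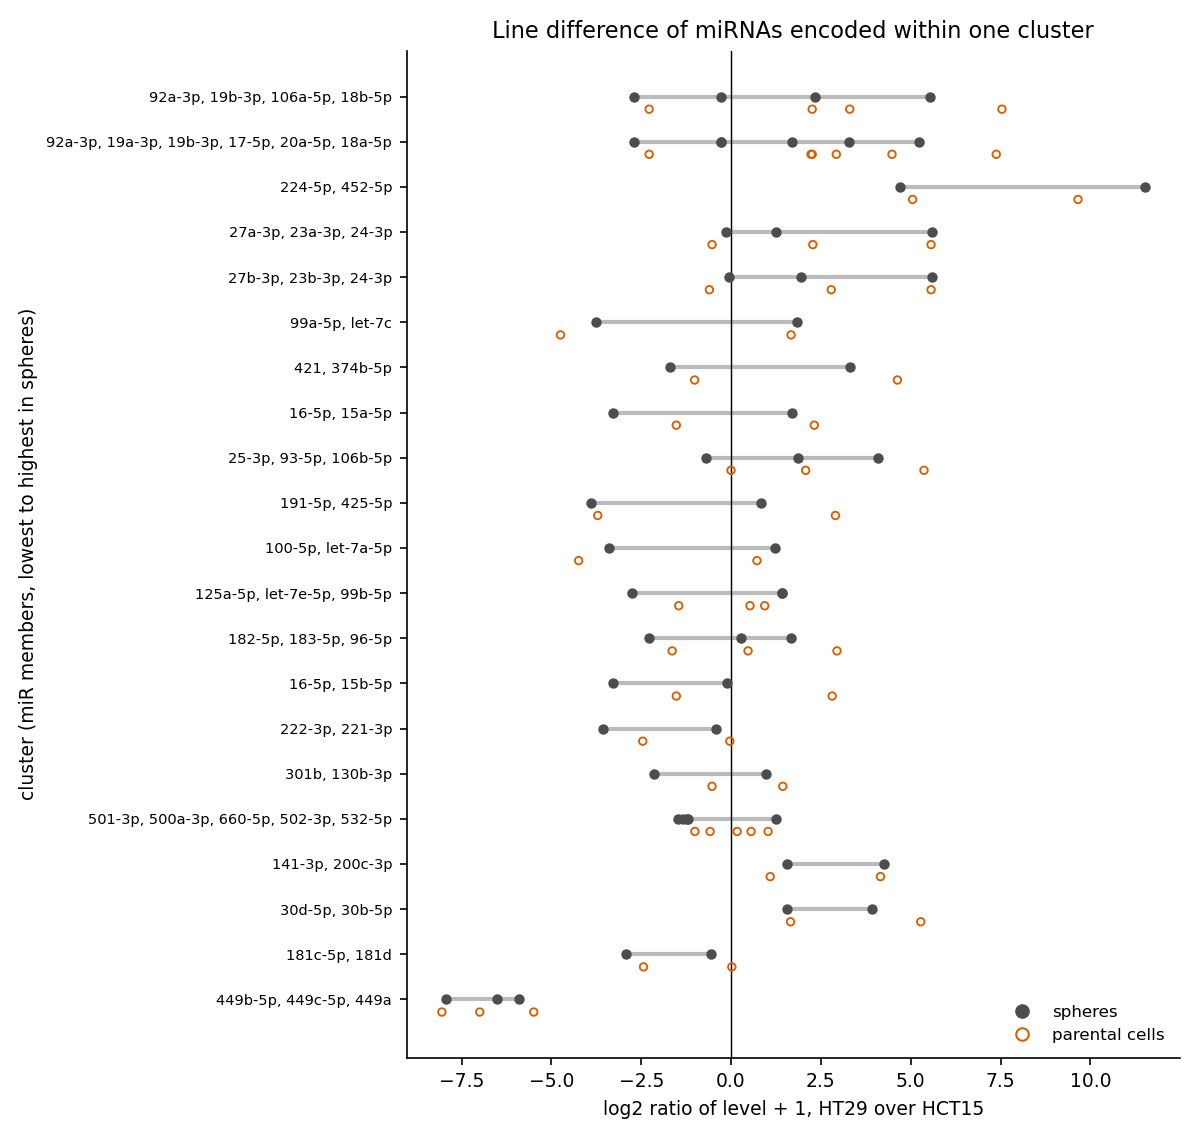
The log2 ratio of the level plus 1 in HT29 over HCT15 for miRNAs of the 21 clusters whose ratios spanned at least 4-fold in spheres, 1 row per cluster, with filled points for spheres, open points for parental cells and a grey bar over the range in spheres. The bars of the miR-17-92 cluster and its X-linked paralog run from -2.70 to 5.22 and 5.54. In parental cells 20 of the 21 clusters also spanned at least 4-fold, as did some clusters not drawn.

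Arm usage, a ratio within each library, differed strongly at a few hairpins. Of 78 hairpins with at least 100 ppm over both arms in each sphere library, 58 had 5p shares within 5 percentage points of each other in the lines, and the median difference was 1.36 points. At 9 hairpins the 5p share differed by at least 20 points, and at 4 the dominant arm changed. miR-671, encoded in an exon of CHPF2, gave 99.0% 5p in HT29 spheres (95% Clopper-Pearson interval 98.6 to 99.2) and 7.15% in HCT15 spheres (5.63 to 8.52). Its 5p arm stood at 370 and 38.5 ppm, and its 3p arm at 3.87 and 499.8. miR-106b gave 88.4% and 32.8% 5p, and miR-335, a miRNA of the MEST locus, 72.5% and 23.1%. miR-126 gave 42.7% and 92.9% 5p, with 5p levels of 110 and 112 ppm and 3p levels of 148 and 8.63 ppm.

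The other hairpins past 20 points were miR-589 (50.6% and 80.3% 5p), miR-28 (29.6% and 3.93%), miR-1307 (60.9% and 84.5%), let-7d (97.0% and 76.5%) and miR-141 (1.05% and 21.5%). All 9 differences had the same sign in parental cells, and 8 of the 9 were past 20 points there as well. At some hairpins the arm share also moved between the cultures of HT29. From parental cells to spheres, the HT29 5p share went from 32.1% to 60.9% at miR-1307 and from 57.7% to 29.6% at miR-28. It went from 30.7% to 50.6% at miR-589 and from 54.8% to 42.7% at miR-126, but only from 98.7% to 99.0% at miR-671. As parental cells both lines thus held more 5p than 3p of miR-126 (90.4% 5p in HCT15). These moves rest on single libraries and were not tested. The plot of arm shares shows HT29 libraries and HCT15 libraries apart at each of the 9 hairpins in both cultures.

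**Figure D4:**
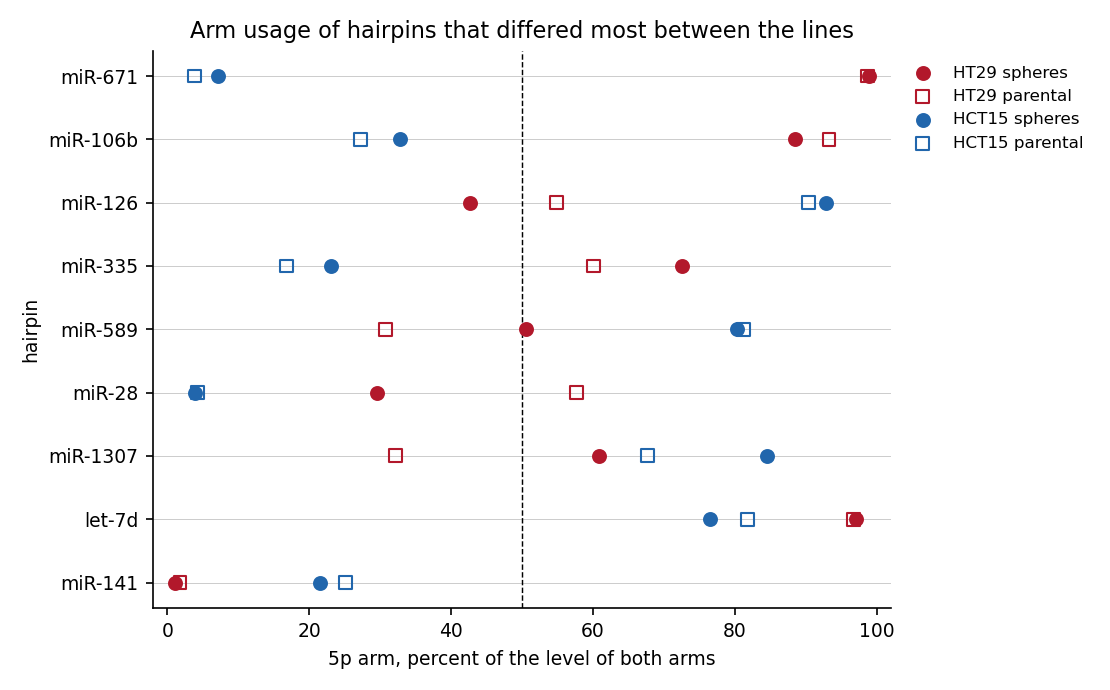
The 5p arm as a percent of the level of both arms (x axis) at the 9 hairpins whose share differed by at least 20 points between sphere libraries, with HT29 in red and HCT15 in blue, filled circles for spheres and open squares for parental cells. miR-671 is at 99.0% in HT29 spheres and 7.15% in HCT15 spheres, and the dashed line marks 50%.

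Bases at the ends of the mature sequence also went with the line ratio. Among the 328 matched miRNAs, the 89 that end in G had a median log2 ratio of 1.85, against -0.65 for the 75 ending in C, -0.55 for the 101 ending in U and -0.02 for the 63 ending in A. A final G was found in 45.3% of matched miRNAs at least 10-fold higher in HT29 spheres, in 13.7% of those at least 10-fold higher in HCT15 spheres and in 25.9% of the rest. A final C was found in 13.2%, 41.2% and 21.0%. Single miRNAs went either way: of the printed sequences, miR-24-3p ends in G and was higher in HT29 spheres, but miR-192-5p and miR-215 end in C and were higher there too, and miR-10a-5p ends in G and was higher in HCT15 spheres. At the 5′ end, a U was found in 56.6%, 25.5% and 40.6% of the same 3 classes. The median GC content was 45.5%, 50% and 47.8%. In parental cells the miRNAs ending in G had a median log2 ratio of 1.88 and those ending in C one of -0.62. The other medians there were unlike those in spheres, at 1.03 for a final A and 0.18 for a final U. These are descriptions of RefSeq's reference sequences, not of the ends of the reads, and their part in the line ratios was not tested.

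The differences between the lines in spheres were mostly present in parental cells too. Of 443 miRNAs compared in parental cells, 91 (20.5%) were at least 10-fold higher in HT29 and 58 (13.1%) at least 10-fold higher in HCT15. Of the 66 and 59 miRNAs past 10-fold in spheres, 56 and 44 were also past 10-fold in parental cells, and 66 of 66 and 59 of 59 had the same sign there. Across the 386 miRNAs, Spearman's rho between the log2 line ratios in spheres and in parental cells was 0.933. Over the same 386, levels in HT29 spheres and HCT15 spheres had a rho of 0.551, against 0.954 between cultures of HT29 and 0.968 between those of HCT15. The 386 were kept for reaching 10 ppm in either sphere library, and 24 were listed at 0 in HCT15 spheres and 6 in HT29 spheres. Keeping names that are high in a single line can lower the rho between lines. The cultures of a line were not selected against each other, so how far the lines differ cannot be read from this contrast. These correlations run over miRNAs of single libraries that share a table and a processing run within each line, and they are descriptions.

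The sign differed between cultures for 37 of the 386 miRNAs. A single miRNA differed at least 4-fold in opposite directions, miR-205-5p, singled out after its values were seen and under 100 ppm in all 4 libraries. HT29 held 38.6 ppm as parental cells and 7.67 ppm as spheres, while HCT15 held 1.89 and 73.4 ppm. Among more abundant miRNAs, the line ratio moved most for miR-31-3p, with log2 ratios of 7.28 in parental cells and 2.63 in spheres. Its guide strand miR-31-5p, raised in colorectal tumours, stood at 13757 ppm in HT29 as parental cells and 3279 ppm as spheres, against 6036 and 10411 ppm in HCT15. miR-135a-5p stood at 790 and 145 ppm in HT29 and at 15.5 and 37.5 in HCT15. The line difference of the differences has no replicate and was not tested.

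**Figure D5:**
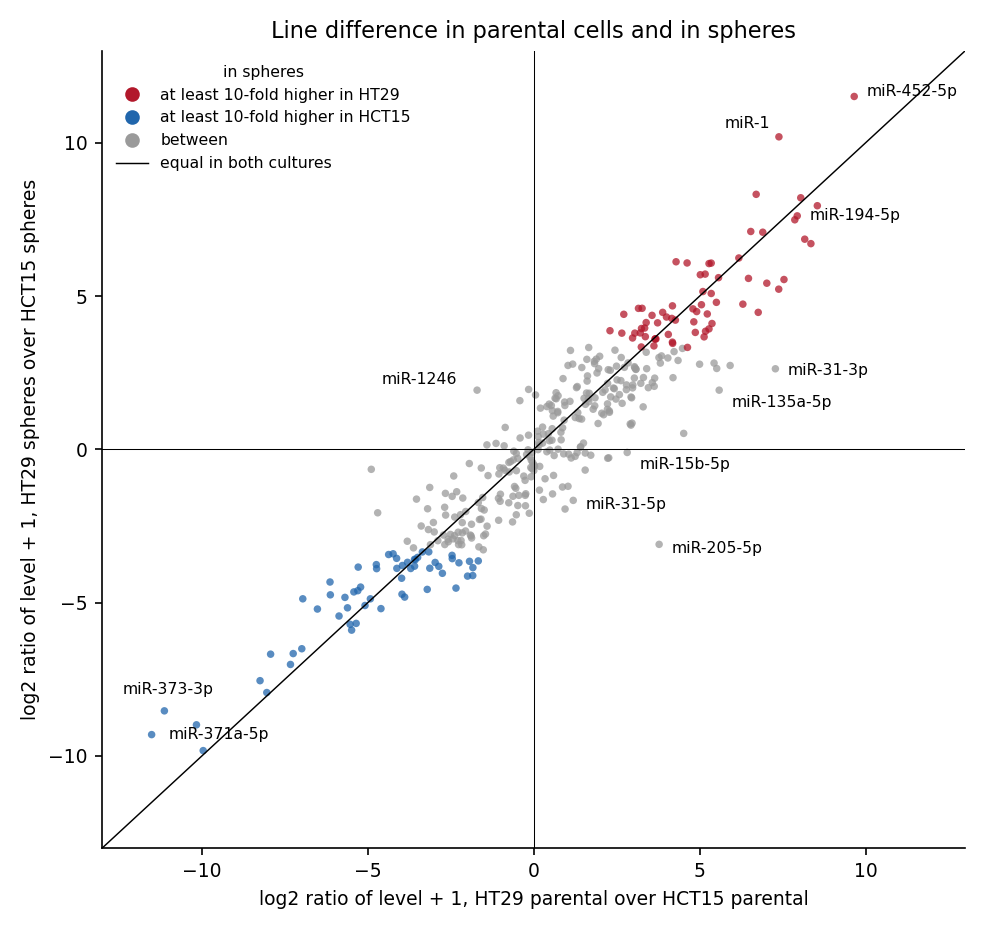
The log2 ratio of the level plus 1 in HT29 over HCT15 in parental cells (x axis) and in spheres (y axis) for the 386 miRNAs compared, with a line where both are equal and colours by the 10-fold threshold in spheres. All coloured points lie in the lower left or upper right quadrant, and miR-205-5p is the point farthest into the lower right.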

How the data were processed

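Small RNA libraries were made with the TruSeq Small RNA kit from 1 ug of total RNA, per the labels' protocols. The HT29 values are read counts per mature miRNA as deposited, and the HCT15 values are RPKM as deposited, both per the file headers, which name miRBase release 19. Even so, the sets of names were not the same, with 1921 listed for HT29 spheres and 2041 for HCT15 spheres. The submitters' processing notes name hg19. Aligner, trimming and the counting of reads that match more than 1 miRNA were not given in the sources used here. The HCT15 RPKM behave like reads per fixed total, with little dependence on length, and 70.6% of 197 low values in HCT15 spheres were whole reads within 0.02 reads, so HCT15 reads are approximate. The most common low value was taken as 2 reads in HCT15 spheres and as 1 read in HCT15 parental cells. On that setting, 4 values in HCT15 spheres lay at 1 read, against 103 in HCT15 parental cells. Values at odd steps were also found in HCT15 spheres, 13 at 3 reads, 8 at 5 and 9 at 7. The read numbers and the floor of HCT15 spheres scale with this setting, which was not tested.

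Levels are parts per 1000000 (ppm) over the 1882 shared names, computed in Python 3.11.15 (numpy 2.4.6, scipy 1.17.1, pandas 2.3.3). The log2 ratio used a pseudocount of 1 ppm, while folds of single miRNAs are ratios of levels. miRNAs at 10 ppm or more in at least 1 library of a culture were compared, and no test was made. The ratio script was checked on simulated data. TMM factors (edgeR 4.0.16, R 4.3.3) were an alternative scaling. Positions are from GENCODE 29 (GRCh38) and were not moved to hg19. Mature sequences are RefSeq's, on GRCh38.

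Named miRNAs were the 12 highest and 12 lowest ratios at 100 ppm or more, the 10 most abundant per sphere library, up to 4 members per list, the 6 hairpins with the largest difference in arm share, the 6 whose line difference moved most between cultures, and the 5 most abundant names in only 1 sphere table. Members and lists were chosen with earlier results of these data known.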

Additional observations from a re-analysis of the deposited data

Results flagged for a closer look

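Among the 6 miRNAs at 100 ppm or more whose line difference moved most between the cultures, 3 had opposite signs in spheres and parental cells, which was not tested. Over all 386 miRNAs compared the sign differed for 37. miR-1246, an entry that overlaps a U2 spliceosomal RNA fragment, had a log2 ratio of HT29 over HCT15 of 1.93 in spheres and -1.71 in parental cells. miR-15b-5p had ratios of -0.10 and 2.81, and the sign in spheres turns under TMM scaling, to 0.02. miR-31-5p had ratios of -1.67 and 1.19.

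Names listed under that spelling for only 1 line were outside the comparison. They held 1.15% of the listed total of HT29 spheres and 0.374% of that of HCT15 spheres. The largest were miR-203 (9776 ppm of all listed names) and miR-98 (964) in HT29 spheres and miR-203a (2030) and miR-98-5p (1409) in HCT15 spheres. Names were matched as written and not joined. Whether miR-203 and miR-203a, or miR-98 and miR-98-5p, are the same entries under different spellings is not settled by the files, so these values are no line difference.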

How the results depend on the processing

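Of the 45 named miRNAs past 10-fold, 6 fell below it under at least 1 of 13 alternative settings (miR-100-5p, miR-512-3p, miR-522-3p, miR-515-5p, miR-379-5p and miR-486-5p). Relative to totals over shared names, TMM factors shifted all log2 ratios by 0.12 and upper quartile scaling by -0.22. The count of miRNAs at least 10-fold higher in HT29 spheres, 66, became 42 at a level minimum of 50 ppm and 38 with a pseudocount of 5 ppm, which shrinks ratios of scarce miRNAs. The count higher in HCT15 spheres, 59, became 36 with that pseudocount, and the 100 miRNAs past 10-fold in both cultures became 58. The 9 hairpins with arm shares 20 points apart became 14 at a minimum of 50 ppm and 5 at 500. With a pseudocount of 5, list medians moved to -1.05 (miR-34), -2.16 (C19MC), 2.41 (DLK1-DIO3), -1.60 (stroma) and 7.88 (muscle), and with 0.5 to -4.92 (C19MC), 5.46 (DLK1-DIO3) and 11.19 (muscle). The other settings kept the counts within 1.5 times. Dividing HCT15 values by length/(length + 9) was chosen after seeing the data. Depth limits ratios against HCT15 spheres, the shallower library. No library could be left out and no paired analysis was possible because each line and culture had 1 library.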
